A study of Mus musculus with 2 samples.

Results

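Knockout-only regions inside genes are stretches of open chromatin that were called as peaks in Dnmt3a knockout mast cells, were not called in wild-type mast cells, and lay within a protein-coding gene more than 1 kb from every gene end. They were selected on the peak calls themselves: the peaks of both lists on chromosomes 1 to 19 and X were merged where they overlapped by at least 1 bp, and merged regions with a knockout peak and no wild-type peak were kept. Merging gave 23364 regions, and 28% of them were knockout-only (6541 regions). Of these, 2941 lay inside genes, and they made up 33.1% of the 8894 regions inside genes. The other regions inside genes were 4309 shared regions and 1644 wild-type-only regions, the latter 18.5% of the total.

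The assay was ATAC-seq, in which a hyperactive Tn5 transposase cuts and tags accessible DNA in nuclei, applied to mast cells grown from mouse bone marrow. There was 1 library from wild-type mice and 1 from littermates with Dnmt3a deleted, all females. Both cultures came from mice 3 to 4 weeks old, received no treatment, and were kept for 4 weeks in interleukin 3, after which over 95% of the cells carried Kit and the IgE receptor on their surface. The sources used here do not say how the Dnmt3a allele was deleted, in which cells, or how many mice were pooled.

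Dnmt3a is an enzyme that places methyl groups on cytosines of CpG dinucleotides that were not methylated before. Open chromatin within genes marks mainly enhancers and alternative promoters. In mast cells, the granule-bearing cells that bind IgE, such elements are known to be occupied by GATA, MITF, RUNX and ETS factors. Neither methylation nor factor binding was measured in these libraries.

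Each genotype had 1 library, and the genotypes were not compared by a test. Intervals are exact (Clopper-Pearson) 95% binomial intervals and cover counting error only. The lists hold only peaks that passed the caller's limit. A region absent from the wild-type list therefore had no called peak there, and its wild-type signal is unknown. In a whole culture, a larger share of some cell type and a more open site in each cell cannot be told apart. At 10 genes that mark mast cells, the gene or its 1 kb surroundings held a wild-type peak at 9 and a knockout peak at 8. Among these, the histamine-forming enzyme gene Hdc had a peak only in the knockout list, and the IgE receptor alpha chain gene Fcer1a and the chymase gene Cma1 only in the wild-type list. Inside the Dnmt3a gene, the target of the deletion, 4 regions were shared, 2 were wild-type-only and 1 was knockout-only.

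Sequence could be read where a knockout-only region lay over an annotated transcription start of RefSeq (GRCm38.p6, the build that mm10 names). These 6 starts are shown because they carry the strongest such regions at the host gene's own start, in 5 genes, and because Cdkn2a, a cell cycle inhibitor gene, has an inner start that is well known. Each line gives the 250 bases before the start, 5′ to 3′ on the gene's strand. Capitals mark the bases under the knockout peak.
Bscl2: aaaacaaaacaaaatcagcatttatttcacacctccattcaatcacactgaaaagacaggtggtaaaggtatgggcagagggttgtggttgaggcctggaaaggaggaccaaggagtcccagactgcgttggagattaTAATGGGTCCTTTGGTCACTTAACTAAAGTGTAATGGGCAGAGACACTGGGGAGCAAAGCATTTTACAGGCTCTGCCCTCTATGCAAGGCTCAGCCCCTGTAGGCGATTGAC
Sh3bp2: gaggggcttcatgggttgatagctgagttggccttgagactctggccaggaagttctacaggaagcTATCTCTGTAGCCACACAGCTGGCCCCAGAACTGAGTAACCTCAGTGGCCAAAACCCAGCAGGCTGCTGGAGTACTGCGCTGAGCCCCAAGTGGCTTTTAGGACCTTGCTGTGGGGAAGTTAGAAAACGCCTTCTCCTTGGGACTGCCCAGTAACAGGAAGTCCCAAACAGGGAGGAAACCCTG
Dcakd: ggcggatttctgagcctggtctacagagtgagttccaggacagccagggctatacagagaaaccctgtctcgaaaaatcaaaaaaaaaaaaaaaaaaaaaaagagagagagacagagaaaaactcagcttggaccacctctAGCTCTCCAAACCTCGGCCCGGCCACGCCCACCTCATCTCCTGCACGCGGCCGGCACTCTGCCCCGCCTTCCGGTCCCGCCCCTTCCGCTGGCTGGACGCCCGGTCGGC
Dusp16: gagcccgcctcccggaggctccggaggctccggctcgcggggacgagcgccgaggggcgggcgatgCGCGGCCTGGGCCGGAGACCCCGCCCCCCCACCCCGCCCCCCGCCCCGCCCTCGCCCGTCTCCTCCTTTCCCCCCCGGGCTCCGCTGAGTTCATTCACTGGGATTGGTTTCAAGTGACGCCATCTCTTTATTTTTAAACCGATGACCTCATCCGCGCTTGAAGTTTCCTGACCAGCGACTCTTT
Zfp790: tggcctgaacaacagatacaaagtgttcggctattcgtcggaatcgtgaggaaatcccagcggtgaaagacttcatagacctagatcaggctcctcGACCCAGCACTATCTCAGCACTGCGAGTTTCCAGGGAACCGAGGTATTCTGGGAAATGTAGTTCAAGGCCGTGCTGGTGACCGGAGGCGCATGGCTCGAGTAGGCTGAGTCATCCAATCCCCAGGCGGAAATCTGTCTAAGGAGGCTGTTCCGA
Cdkn2a: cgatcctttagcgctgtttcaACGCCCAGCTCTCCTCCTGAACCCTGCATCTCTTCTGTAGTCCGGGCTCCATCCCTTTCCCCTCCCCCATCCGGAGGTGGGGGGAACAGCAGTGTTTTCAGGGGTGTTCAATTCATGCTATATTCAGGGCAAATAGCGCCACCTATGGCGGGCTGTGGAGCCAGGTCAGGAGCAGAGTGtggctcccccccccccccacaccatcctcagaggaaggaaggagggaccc

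These windows differed in base composition although all lay under peaks called only in the knockout list. Bscl2, which encodes the lipid droplet protein seipin, was read at chr19:8840253-8840502 on the plus strand. Its region reached a −log10 q of 14.1, and its summit pileup, the number of fragments over the peak's highest point, was 14. The letters above hold 2 CpGs, 1 of them under the peak. The Sh3bp2 stretch, at chr5:34543115-34543364 on the plus strand, belongs to the gene of a signalling adaptor and lay 17.6 kb inside it. Its peak (−log10 q 12.3, pileup 12) covered 184 of the 250 bases and 2 CpGs, with 1 ETS match (AGGAAGT) and 1 E-box (CAGCTG) among the capitals. Both starts were poor in CpG, at 0.28 and 0.12 of the number that their C and G content would give.

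The other starts were richer. Dcakd, a dephospho-CoA kinase domain gene, was read at chr11:103017148-103017397 on the minus strand and had 15 CpGs, 13 of them under the peak (−log10 q 11.5, pileup 9). Dusp16, which encodes a phosphatase of MAP kinases, was read at chr6:134792629-134792878 on the minus strand. It had 27 CpGs, 16 under the peak (−log10 q 11.5, pileup 12), and the nearest wild-type peak was 37.2 kb away. Zfp790, a zinc finger gene, was read at chr7:29815822-29816071 on the plus strand and had 14 CpGs, 8 under the peak (−log10 q 11.1, pileup 11). The stretch of Cdkn2a at chr4:89282193-89282442, on the minus strand, lay before an inner start 12.4 kb from the gene's outer start. Its 179 capitals held 5 of 7 CpGs, the region had a −log10 q of 7.72 and a pileup of 8, and the nearest wild-type peak was 28.5 kb away. A letter match describes the sequence and does not show that a factor binds there.

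Few of the regions lay at an annotated start. Of the 2941, 146 overlapped a start window (250 bases before to 50 after a start), which is 4.96% (interval 4.21 to 5.81), and 130 of these were starts of the host gene itself. The share was 7.54% (6.31 to 8.93) for wild-type-only and 11.4% (10.5 to 12.4) for shared regions inside genes, so that the 3 intervals did not overlap. The share rose with pileup in shared regions, and the difference was therefore also read by pileup in the list that held the region. At a pileup of 5 or less the shares were alike, 2.67% for knockout-only (1.78 to 3.84), 2.92% for wild-type-only (1.71 to 4.63) and 2.83% for shared regions (1.30 to 5.30). At 6 or 7 they were 5.42% (4.06 to 7.06), 7.85% (5.72 to 10.5) and 7.99% (6.06 to 10.3), and the intervals overlapped. At 8 to 10 they were 6.99% (5.22 to 9.14), 12.4% (9.26 to 16.1) and 10.2% (8.48 to 12.1), and the interval of the knockout-only regions ended below that of the wild-type-only regions. At 11 or more they were 7.17% (4.31 to 11.1), 12.2% (7.42 to 18.7) and 14.4% (12.9 to 15.9).

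Starts under knockout-only regions were CpG-rich more often than starts inside genes in general. Of 144 different windows under knockout-only regions, 84 (58.3%, interval 49.8 to 66.5) had over 50% GC and over 0.6 of the CpGs that this content would give. Under wild-type-only regions the share was 61.5% (52.2 to 70.1) and under shared regions 71.0% (66.7 to 74.9), against 21.7% of all 6389 start windows inside genes. The median window held 17.5 CpGs under knockout-only, 20 under wild-type-only and 21 under shared regions, against 5 over all windows inside genes. Every window under a knockout-only region held at least 1 CpG (0 of 144 without, with an interval of 0 to 2.53%), whereas 4.01% of all windows inside genes held none. The same was true of the other classes, with 0 of 122 windows under wild-type-only and 0 of 489 under shared regions. In the plot of CpG content by class, the windows of each class reach from below 0.2 to above 1. Counted over the bases under the peak alone, where at least 50 lay in the window, 62.2% of 135 stretches were CpG-rich. Shared regions had the higher pileups, and the CpG-rich shares were therefore also read by pileup. At a pileup of 5 or less they were 39.3% for knockout-only (21.5 to 59.4) and 55.6% for shared regions (21.2 to 86.3), and at 6 or 7 they were 68.6% (54.1 to 80.9) and 63.0% (48.7 to 75.7). At 8 to 10 they were 59.6% (44.3 to 73.6) and 63.7% (54.1 to 72.6), and at 11 or more 55.6% (30.8 to 78.5) and 75.5% (70.3 to 80.1). Wild-type-only regions had 47.1%, 60%, 72.3% and 50% in the same order. The intervals of the classes overlapped at each pileup.

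**Figure D1:**
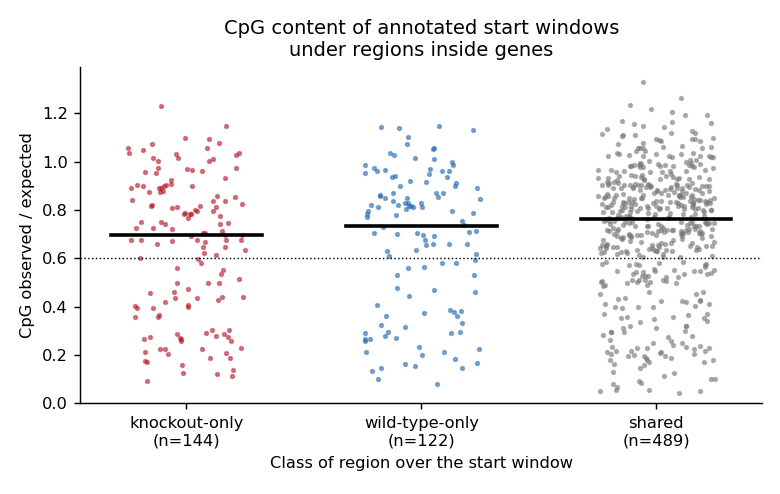
CpG observed over expected in the 300-bp windows of annotated starts under regions inside genes, by class. Each point is 1 window, the bar is the median (0.70 knockout-only, 0.73 wild-type-only, 0.76 shared) and the dotted line is the limit of 0.6 used for CpG-rich; the 3 classes cover much the same range.

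Motifs of mast cell and inflammatory factors were searched as letters on both strands in the same 300-bp windows, and none of the letter strings contains another. The IRF string GAAANNGAA was found in 3 of 144 windows under knockout-only regions (2.08%, interval 0.43 to 5.97). It was found in 8.20% (4.00 to 14.6) under wild-type-only regions, 7.36% (5.21 to 10.05) under shared regions and 7.95% (7.30 to 8.64) of all windows inside genes. The interval of the knockout-only windows thus ended below that of all windows inside genes, and it overlapped that of the shared windows. The GATA string AGATAA was in 6.94% (3.38 to 12.4), against 11.6% of all windows inside genes, and the MITF E-box CATGTG in 9.03% (4.89 to 14.9) against 16.2% (15.3 to 17.1). Shared regions had similar or lower values for both, 5.93% and 7.57%. The RUNX string TGTGGT was in 17.4% (11.6 to 24.6) against 18.5% over all windows inside genes. The core string AGGGGGC of CTCF, a factor of chromatin loops, was in 18.8% (12.7 to 26.1), close to the 18.9% of wild-type-only and the 18.2% of shared windows, and above the 10.4% of all windows inside genes (9.62 to 11.1). For the other 9 of the 12 strings searched, the intervals of the knockout-only windows and of all windows inside genes overlapped. Base composition differed between these sets and was not accounted for.

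Most knockout-only regions were weak peaks. Their −log10 q, the authors' peak strength after correction for the number of sites tested, ran from 3.19 to 20.5 with a median of 6.48. Their median fold over local background was 6.14, their median pileup 6 fragments (4 to 23), and their median width 113 bp. Shared regions inside genes had a median −log10 q of 10.7 and a pileup of 11 in the knockout list, and were 175 bp wide. Wild-type-only regions inside genes resembled the knockout-only ones, with 6.16, 6 and 107 bp in their own list. A −log10 q of at least 10 was reached by 316 knockout-only regions (10.7%) and by 54.7% of shared regions. At 15, the numbers were 28 (0.952%) and 26.8%. The selection required the lack of a wild-type peak, so these levels describe the regions and carry no test.

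**Figure D2:**
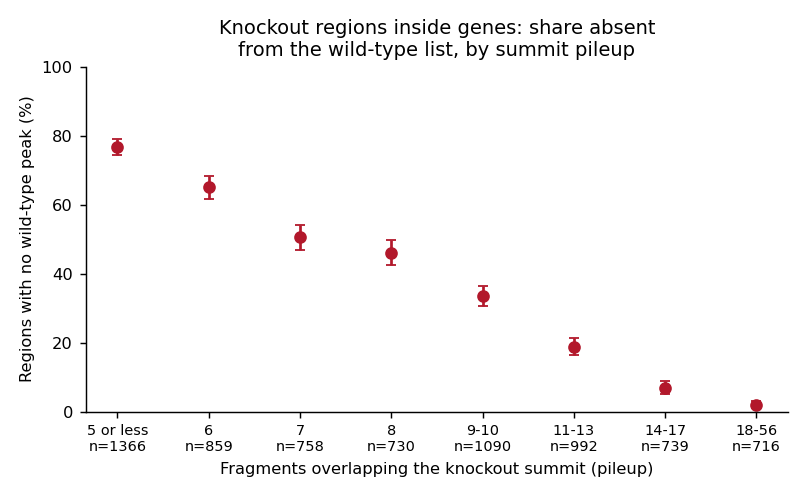
Share of knockout regions inside genes that had no wild-type peak (y axis, %) against the pileup at the knockout summit (x axis, fragments, with the number of regions). Points are shares and bars exact 95% binomial intervals; the share fell from 76.7% at 5 or fewer fragments to 1.82% at 18 to 56.

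The lack of a wild-type partner went with low pileup. Among knockout regions inside genes with 5 or fewer fragments at the summit, 76.7% (1048 of 1366, interval 74.4 to 78.9) had no wild-type peak. The share was 50.5% at 7 fragments (46.9 to 54.1), 18.9% at 11 to 13 (16.5 to 21.4) and 1.82% at 18 to 56 (13 of 716, 0.97 to 3.08). Each step in the plot of this share by pileup was downward. At the 4309 shared regions inside genes the summed pileup was 1.09 times as high in the knockout as in the wild-type list, with a range over chromosomes from 1.02 to 1.12. The part of this difference in the number of knockout-only calls was not tested.

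The strongest knockout-only region lay inside Hdac7, the gene of a class IIa histone deacetylase, at chr15:97825080-97825246. It had a −log10 q of 20.5, a fold of 13.6 and a pileup of 18, and the nearest wild-type peak was 3.54 kb away. A region inside Ralgps1, which encodes an exchange factor of Ral GTPases, followed at chr2:33329767-33329940 with a −log10 q of 19.9 and a pileup of 17. A wild-type peak lay 0.526 kb from it. Inside Rsu1, an adhesion adaptor gene, chr2:13229754-13229962 had a −log10 q of 18.7 and a pileup of 16, with no wild-type peak nearer than 33.9 kb.

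The highest pileup, 23, was in the cyclin D3 gene Ccnd3 at chr17:47595581-47595720 (−log10 q 18.3). This region lay 2.05 kb from a shared one, and its local background of 1.2 was above the median of 0.14. The Dock8 region (chr19:25095229-25095410, −log10 q 17.9, pileup 14) stood far from wild-type peaks, the nearest at 42.7 kb. Dock8 encodes an exchange factor of Cdc42 that blood cells use in migration. A region of the same strength (17.9, pileup 15) in Zeb1, the gene of a zinc finger repressor, was still farther, at 82.8 kb. Sspo, the gene of the secreted protein SCO-spondin, had a region of 17.9 as well (pileup 15), 16.4 kb from a wild-type peak.

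Next came Ncf4, a subunit gene of the phagocyte NADPH oxidase, with 17.8 and a pileup of 18, then Ccdc12 with 17.6 and 17, and Pla2g12b, of the secreted phospholipase family, with 17.5 and 15. Among these 10 regions, the distance to the nearest wild-type peak thus ran from 0.526 to 82.8 kb. At the lower end, the weakest regions lay in Slc25a46 (−log10 q 3.19), Mns1 (3.25), and Mfsd2a, Hs3st1 and Pcyt1a (3.27 each), with pileups of 5 or 6. The distance limit of 1 kb was passed most narrowly in Tmem86b (1008 bp from a gene end), N4bp2l2 (1012 bp) and Atp5g3 (1017 bp). Regions at Slc25a39 (999 bp), Kcnh2 (997 bp) and Lgals2 (992 bp) fell just outside.

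Inside genes, knockout-only regions were more numerous than wild-type-only ones, and the excess was greater inside genes than at gene ends. The ratio was 1.79 inside genes (2941 against 1644, interval 1.68 to 1.90), 1.49 within 1 kb of gene ends (1617 against 1085, 1.38 to 1.61) and 1.62 between genes (1983 against 1223, 1.51 to 1.74). The intervals inside genes and at gene ends did not overlap, while that between genes overlapped both. With the knockout list cut to the length of the wild-type list, the ratios were 1.11 (1.04 to 1.18), 0.92 (0.853 to 0.999) and 1.03 (0.96 to 1.11), again higher inside genes than at gene ends. Where only peaks with a −log10 q of 10 or more were counted as unshared, the ratio inside genes was 3.36 (316 against 94, 2.66 to 4.28), and at 15 it was 9.33 (28 against 3, 2.88 to 48.0). The same limit was set on both lists, and over all peaks 8329 in the knockout and 6695 in the wild-type list reached 10. The part of this difference between the lists in the ratios was not tested.

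**Figure D3:**
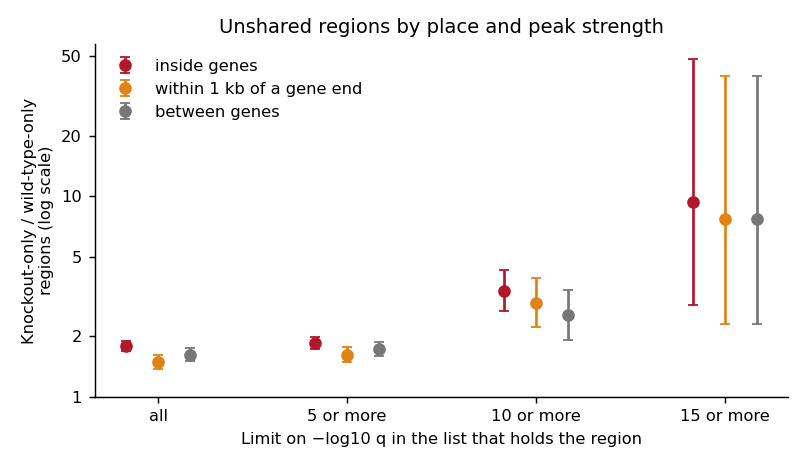
Knockout-only regions divided by wild-type-only regions (y axis, log scale) by the limit set on −log10 q in the list with the peak (x axis), for regions inside genes, within 1 kb of gene ends, and between genes. Bars are exact 95% binomial intervals; all ratios lie above 1, and the intervals widen to 2.88 to 48.0 for the strongest regions inside genes.

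On all 20 chromosomes the knockout-only regions inside genes were the more numerous. The ratio ran from 1.27 on the X chromosome (42 against 33) to 3.11 on chromosome 19 (109 against 35), with 2.40 on chromosome 17 (125 against 52). Knockout-only regions made up 38.9% of regions inside genes on chromosome 19 and 28.9% on chromosome 3, the ends of the range. At shared regions inside genes the pileup ratio of knockout to wild type was 1.06 on chromosome 19, within the range of the others. Without chromosome 19 the ratio of regions inside genes was 1.76.

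The regions sat deep in long genes. Their median distance from a gene end was 17.7 kb (16.3 kb for wild-type-only and 16.8 kb for shared regions), 66.1% lay over 10 kb from every gene end (64.4 to 67.8), and 47.0% lay in genes over 100 kb. These values were near those of wild-type-only (63.1% and 47.0%) and shared regions (64.0% and 46.4%). Within genes whose strand was known, 9.10% of the 2374 regions lay within 1 kb of any annotated start of the host gene (7.97 to 10.3), against 12.6% of wild-type-only (10.8 to 14.5) and 16.3% of shared regions (15.05 to 17.5). Along the gene, cut into 10 equal stretches, the one nearest the start held 11.4% and the one farthest from it 7.03% of knockout-only regions, and those between held 9.65% to 11.04%. The first and last stretches held 11.6% and 7.69% of wild-type-only regions, and 11.4% and 5.64% of shared regions. Per megabase of gene, knockout-only regions numbered 2.83 over all genes, with 3.90 in genes of 30 to 100 kb and 1.30 in genes over 300 kb. Their share of all regions inside genes nevertheless stayed between 30.8% and 33.8% over the 5 length classes.

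Most regions stood alone. The median distance to the nearest wild-type peak was 18.6 kb and to the nearest shared region 24.9 kb. Within 1 kb of a wild-type peak lay 256 regions (8.70%, 7.71 to 9.78), and within 100 bp 98 (3.33%, 2.71 to 4.05). Wild-type-only regions inside genes lay within 1 kb of a knockout peak more often, in 15.5% (13.8 to 17.4). The knockout list they are measured against was longer (19684 against 17170 peaks), and its part in this difference was not tested. Against the same shared regions, 5.44% of knockout-only (4.65 to 6.32) and 9.37% of wild-type-only regions (8.002 to 10.9) lay within 1 kb.

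Neighbouring knockout-only regions were rare, with 115 (3.91%, 3.24 to 4.68) within 1 kb of another, and joining those within 1 kb left 2882 sites. Runs of 3 or more within 5 kb occurred in 3 genes, with 0 wild-type peaks in each span. Hhat, which encodes the acyltransferase of Hedgehog proteins, had 4 in 0.689 kb at chr1:192745671-192746359. In Pde4d 3 lay in 0.491 kb at chr13:109231927-109232417. In Rbm47, an RNA-binding protein gene, 3 lay in 4.88 kb at chr5:66075089-66079969. Whether such a run is 1 broad site was not tested. No knockout-only region overlapped a microRNA hairpin, and 8 of 2941 lay within 1 kb of one, the nearest inside Zmiz1, 26 bp from Mir3075. Of 1644 wild-type-only regions inside genes, 3 lay within 1 kb of a hairpin, and 1 overlapped it. Of 4309 shared regions inside genes, 6 lay as near, and 0 overlapped.

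The regions were spread over 2167 genes, 10% of the 21631 protein-coding genes and 47.8% of the 4533 genes with any region inside. Of these genes, 1647 held 1 region, 347 held 2, 107 held 3 and 66 held 4 or more. Genes with 3 or more numbered 173, against 44 of the 1360 genes with wild-type-only regions inside, and 547 genes held regions of both classes. A shared region at a gene end was present in 35.8% of the 2167 genes (33.7 to 37.8), 33.2% of genes with wild-type-only regions inside (30.7 to 35.7) and 28.6% of all protein-coding genes (28.0 to 29.2).

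Zmiz1, the gene of a transcriptional coactivator of the PIAS family on chromosome 14, held the most, 9, with 1 wild-type-only and 6 shared regions. Their −log10 q ran from 3.59 to 11.4 and their pileups from 5 to 12, and they lay 2.84 to 27.7 kb from wild-type peaks. Pde4d, which encodes a cAMP phosphodiesterase, held 8 beside 3 wild-type-only and 13 shared regions, with −log10 q from 4.19 to 10.7. Its count of 8 includes the 3 neighbours described above. Arid1b and Snd1 held 6 each and no wild-type-only region. Arid1b encodes a subunit of the BAF chromatin remodelling complex, and its regions, beside 8 shared ones, had −log10 q from 3.74 to 11.7. Snd1, an RNA-binding nuclease domain gene, had 1 shared region inside, and its 6 regions ran from 3.44 to 16.1.

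Prkca, the protein kinase C alpha gene, held 6 beside 1 wild-type-only and 10 shared regions, and 2 of the 6 lay within 0.5 kb of a wild-type peak (0.349 and 0.496 kb). Agap1, an Arf GTPase-activating protein gene, held 6 beside 1 and 1. Abr held 6 beside 2 and 5, and Gas7, an actin-binding protein gene, 6 beside 3 and 6. Gse1 went against the general excess, with 6 knockout-only and 7 wild-type-only regions beside 11 shared ones.

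**Figure D4:**
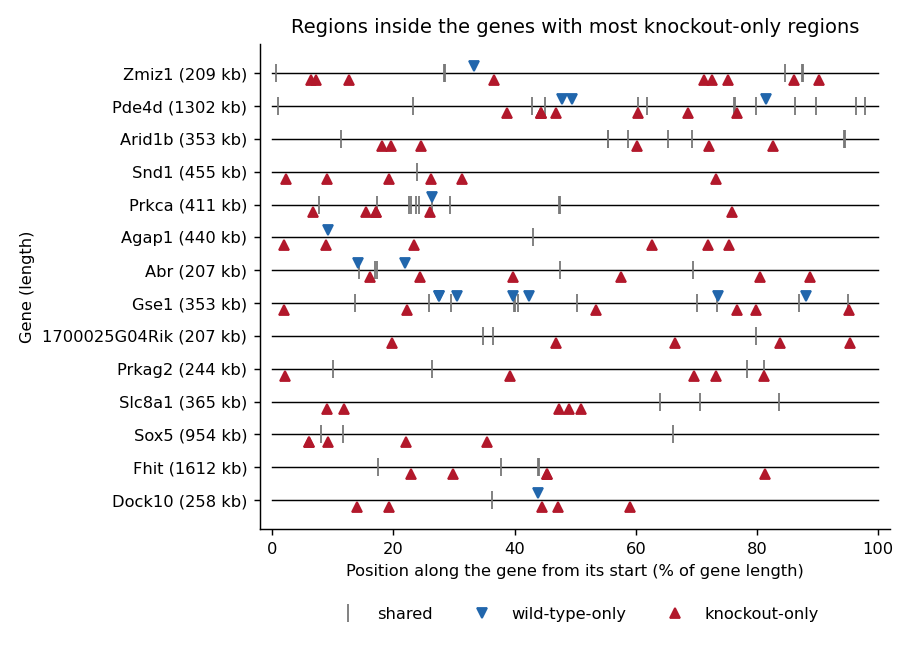
Regions inside the genes with 6 or more knockout-only regions and in 6 of the 16 genes with 5, those with the fewest wild-type-only regions, along each gene from its start (x axis, % of gene length; Gas7 is not drawn). Red triangles are knockout-only, blue triangles wild-type-only and grey bars shared regions; in Snd1, Arid1b, 1700025G04Rik, Prkag2, Slc8a1, Sox5 and Fhit no blue triangle appears, which the choice among genes with 5 favours.

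Of 16 genes with 5 knockout-only regions, those with 0 wild-type-only ones were 1700025G04Rik, Prkag2, Slc8a1, Sox5 and Fhit. Prkag2 encodes a regulatory subunit of AMP-activated kinase, Slc8a1 a sodium and calcium exchanger, Sox5 an HMG-box transcription factor and Fhit a hydrolase encoded across a fragile site. Dock10, a further exchange factor of the Dock family, held 5 against 1. In the map of these genes, red triangles lie close together in some genes: 3 of 5 in Slc8a1 lay 172.7 to 186.3 kb from the start, 3 of 6 in Arid1b 64.1 to 86.7 kb, and 4 of 8 in Pde4d 577.8 to 609.8 kb. At least 4 knockout-only and 0 wild-type-only regions were found in 26 genes, and the reverse in 2. These were out of 66 genes with 4 or more knockout-only and 12 with 4 or more wild-type-only regions. The knockout-only class was also larger, with 2941 regions against 1644. The 26 include Il15, a cytokine gene of lymphocyte survival, and Wipf1, a partner gene of the Wiskott-Aldrich protein, with 4 each.

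In 597 of the 2167 genes (27.5%), neither the gene nor its 1 kb surroundings held a wild-type peak, and these genes carried 663 regions (22.5%). These genes thus had calls in the knockout list only, mostly 1 per gene, and 69 of them held 2 or more. The share of all protein-coding genes without a wild-type peak is not given here. Nor is the reverse count, of genes with wild-type-only regions and no knockout peak. The 27.5% therefore has no value to be set against. Arsb, the gene of a lysosomal sulfatase, held 4, the strongest with a −log10 q of 6.83. Hc, the complement component C5 gene, and Pde2a, a cyclic nucleotide phosphodiesterase gene, held 3 each, with up to 10.7 and 8.51. Etl4 also held 3, with up to 12.3. Zeb1 held 2, the one described above and one of 7.41.

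Gene lists of mast cell biology were then counted, each beside the 33.1% that knockout-only regions made up over all regions inside genes and the 10% of genes that held one. Of 20 mast cell effector genes, 2 held a knockout-only region. The list had 2 knockout-only, 4 wild-type-only and 19 shared regions, so that knockout-only ones made up 8% (interval 0.98 to 26.0). In Cpa3, the mast cell carboxypeptidase gene, the region at chr3:20229169-20229319 had a −log10 q of 6.23 and a pileup of 10, and in Kit, the stem cell factor receptor gene, chr5:75633388-75633490 had 5.68 and 8.

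Among 25 mast cell and hematopoietic transcription factor genes, 12 held 27 knockout-only regions beside 21 wild-type-only and 40 shared ones (30.7%, 21.3 to 41.4). Erg, an ETS factor gene, held 4 and 0 wild-type-only, with −log10 q from 5.28 to 8.50, all over 30 kb from wild-type peaks. Etv6, another ETS factor gene, held 3, among them a strong one at chr6:134247426-134247586 (−log10 q 15.3, pileup 13), 60.7 kb from a wild-type peak. Bach2, a leucine zipper repressor gene, held 3 against 3, with one of 14.7 at chr4:32307365-32307536. Mitf held 3 knockout-only and 4 wild-type-only regions.

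Signalling lists had knockout-only regions in a larger share of their genes than the 10% over all genes, and in about the general share of their regions. Their genes were long, and of all genes of 30 to 100 kb 17.04% held a knockout-only region, and of those of 100 to 300 kb 33.4%. Among 30 genes of IgE receptor and Kit signalling, 16 held 26 regions, beside 13 wild-type-only and 50 shared (29.2%, 20.1 to 39.8). Prkcb, the protein kinase C beta gene, held 4 with −log10 q from 5.72 to 9.53 and pileups from 7 to 9, and Plcg2, a phospholipase C gene, 2 with 3.34 and 8.35. Among 25 phosphoinositide enzyme genes, 16 held 29 regions, beside 14 and 46 (32.6%, 23.0 to 43.3). The inositol trisphosphate receptor genes Itpr1 and Itpr2 held 4 each, against 0 and 1 wild-type-only regions, and the phosphatase gene Inpp4b 4 against 3.

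Of 24 Ras and Rap regulators 10 held 21 regions beside 7 and 34 (33.9%, 22.3 to 47.0). Rapgef2 and Sipa1l3, which encode an activator and an inhibitor of Rap, held 4 each and 0 wild-type-only regions. Among 25 genes of cAMP and calcium handling, 14 held 25 regions beside 20 and 34 (31.6%, 21.6 to 43.1), with 8 in Pde4d alone. Adcy7, an adenylyl cyclase gene, held 2 of −log10 q 7.72 and 10.2 and no wild-type-only region. Genes in these lists were long, with medians of 76.4 to 143 kb, against 19.4 kb for the mast cell effectors.

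**Figure D5:**
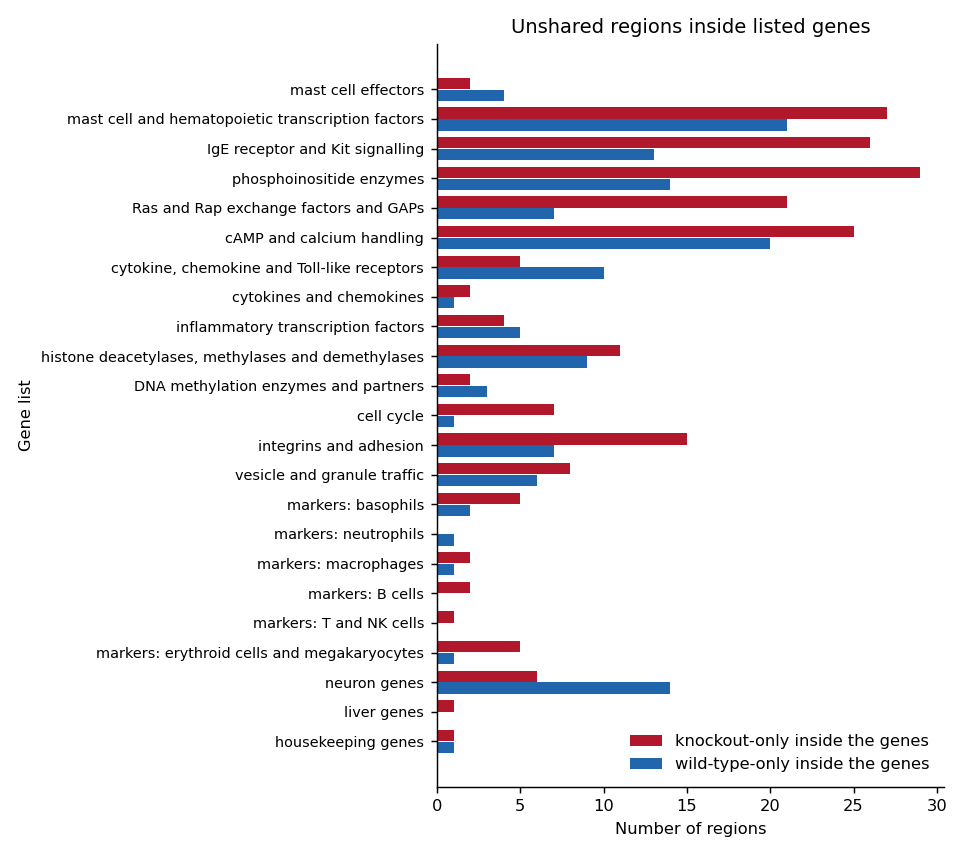
Number of knockout-only (red) and wild-type-only (blue) regions inside the genes of 23 lists (x axis, regions; y axis, list). Bars start at 0; in 16 of the 23 the red bar is longer, and the blue bar is longer for mast cell effectors, receptors, inflammatory transcription factors, DNA methylation genes, neuron genes and neutrophil markers.

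Inflammatory genes are mostly short, and their knockout-only regions were few in number but not in density, with 6.18 to 10.3 per megabase of gene over the 3 lists against 2.83 over all genes. The other classes were dense there too. Wild-type-only regions numbered 5.14 to 12.4 per megabase against 1.58 over all genes, and shared regions 9.88 to 20.6 against 4.15. Of 25 cytokine and chemokine genes, 2 held 1 each (28.6% of the list's regions, 3.67 to 71.0). These were Ccl4, a chemokine gene, at chr11:83662312-83662451 with a −log10 q of 13.1, 61.5 kb from a wild-type peak, and Il1a, the interleukin 1 alpha gene, with 7.15. Of 25 receptor genes of cytokines, chemokines and Toll-like ligands, 5 held 5 knockout-only against 10 wild-type-only regions (21.7%, 7.46 to 43.7). They included Csf2rb2, whose protein takes part in interleukin 3 binding (−log10 q 7.20, pileup 13), Il7r (7.72) and Il6ra (6.12). Of 25 inflammatory transcription factor genes 4 held 1 each, against 5 wild-type-only regions (25%, 7.27 to 52.4). Batf, an AP-1 family gene, had a region of 10.5 that lay 16 bp from a wild-type peak. Nfkbiz and Nfkb2, of the NF-kB system, had regions of 11.3 and 7.43, at 0.216 and 0.086 kb from wild-type peaks.

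Chromatin and cell cycle genes were mixed. Histone deacetylase, methylase and demethylase genes had 11 knockout-only regions against 9 of the wild type (29.7%, 15.9 to 47.0). Hdac4 held 3 of up to 11.9, Kdm4b, a histone demethylase gene, 2 of up to 8.17, and Hdac7 2 against 3 wild-type-only. DNA methylation genes had 2 against 3 (12.5%, 1.55 to 38.3). The knockout-only region of Dnmt3a lay at chr12:3823626-3823725 (−log10 q 7.89, pileup 7), 22.1 kb from the gene's start, and that of the demethylating enzyme gene Tet2 at chr3:133530817-133530931 (5.71, pileup 5). Cell cycle genes had 7 against 1 (31.8% of their regions, 13.9 to 54.9). These were 2 in Ccnd3 and 1 each in Cdk6, Cdkn1a, Cdkn2a, E2f3 and E2f7. The E2f3 region had a −log10 q of 11.3 and lay 21.6 kb from a wild-type peak.

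Adhesion and vesicle genes followed. Integrin and adhesion genes had 15 against 7 (36.6%, 22.1 to 53.1). Itga2, a collagen receptor subunit gene, held 3 against 1, with −log10 q from 6.12 to 9.53, and Itgb3 3 against 0, with 5.28 to 7.58. Itga9 held 2 against 3. Vesicle and granule genes had 8 against 6 (23.5%, 10.7 to 41.2). Exoc4, an exocyst subunit gene, held 2 that lay over 260 kb from any wild-type peak, with pileups of 4 and 5. Rab8b held 1 of 8.94, and Unc13d, a granule priming gene, 1 of 8.89 against 2 wild-type-only.

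Markers of other cell types were counted in the same way, in lists with 3 to 7 regions each. Erythroid and megakaryocyte markers had 5 knockout-only, 1 wild-type-only and 0 shared regions, in 4 of 18 genes (83.3% of regions, 35.9 to 99.6, and 7.90 knockout-only regions per megabase of gene). The 5 lay in Itga2b (2), Klf1, Gp9 and Vwf, of which Klf1, an erythroid factor gene, had the strongest (−log10 q 11.5, pileup 10). Basophil markers had 5, 2 and 0 in 3 of 6 genes (71.4%, 29.0 to 96.3, and 32.4 per megabase), with 3 of the 5 in Itga2, which is also an integrin gene, and 1 each in Ms4a3 and Cd200r1. Macrophage markers had 2, 1 and 0 (66.7%, 9.43 to 99.2, and 2.85 per megabase), in Csf1r and Siglec1. B cell markers had 2, 0 and 2 (50%, 6.76 to 93.2, and 2.45 per megabase). Pax5, the B cell factor gene, had a −log10 q of 11.9 and Blnk 7.70. T and NK cell markers had 1, 0 and 4 (20%, 0.51 to 71.6, and 1.51 per megabase), the first in Tcf7. Neutrophil markers had 0, 1 and 2 (0%, 0 to 70.8, and 0 per megabase). Over all genes there were 2.83 knockout-only regions per megabase, so that density was high in some of these lists and not in others. The part that other cells in the cultures had in these regions was not tested.

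Genes of unrelated tissues gave a comparison. Of 25 neuron genes, with a median length of 1108 kb, 5 held 6 knockout-only regions beside 14 wild-type-only and 6 shared ones. This was 0.195 knockout-only regions per megabase of gene, against 2.83 over all genes and 1.30 in genes over 300 kb. The other classes were sparse there too, with 0.456 wild-type-only and 0.195 shared regions, against 0.803 and 1.84 in genes over 300 kb. Knockout-only regions made up 23.1% of the list's regions (8.97 to 43.6). Cntnap2, a neuronal adhesion gene, had the strongest, of −log10 q 11.8. The liver list had 1, in the aminotransferase gene Tat, with a −log10 q of 4.09 and a pileup of 4. Housekeeping genes had 1, 1 and 3, the knockout-only one in Actb, 0.618 kb from a wild-type peak, with 4.32. Only the intervals of the mast cell effectors and of the erythroid and megakaryocyte markers did not include 33.1% among the 24 lists. Among 24 intervals at the 95% level, some can miss such a value by counting error alone. Regions in the same gene, such as the 2 in Itga2b, are also not independent, and no list was tested.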

How the data were processed

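Open chromatin was mapped in 1 wild-type and 1 Dnmt3a knockout culture, with 50 bp single reads and a stated depth of 10 M reads per library, per the labels. The submitters' processing notes name the tools Trimmomatic, Bowtie2 and MACS2 and the builds mm10 and GRCm38. Their versions and settings were not given in the sources used here, nor was a correction of read positions for the Tn5 cut, which would move peak edges by a few bases. The authors deposited 1 peak list per sample, giving each peak a score, a fold enrichment over local background, and −log10 p-values and q-values, and with the summit's offset from the peak start. These are the authors' own values and were used to describe and filter peaks within their list. The lists held 17170 wild-type and 19684 knockout peaks, with no total read count. The deposited fold and −log10 p gave a whole-number summit pileup for 100% of peaks in both lists (tolerance 0.001 in −log10 p, assuming a Poisson p and a pseudocount of 1), and this was taken as the depth.

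Peaks were merged and classed in Python 3.11.15 with NumPy 2.4.6, pandas 2.3.3 and SciPy 1.17.1, and the count of knockout-only regions was checked with bedtools 2.31.1 (6541 by both). The steps were tested on simulated data, where all 150 simulated regions and 500 simulated pileups were recovered. Genes, starts and their windows came from RefSeq tables of GRCm38.p6, with 21631 protein-coding genes, of which 17274 had a strand there. Exons, introns and sequence away from starts were not used here. All 522 listed genes matched. The result of 1 of the 24 gene lists is not reported here. Coordinates are 1-based.

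Members, gene lists and alternatives were chosen with earlier results of these data known, so that no list is independent evidence, and the excess in the cell cycle list had been seen. Genes named are the 10 with the strongest regions, the 15 with the most (6 of the 16 tied at 5, taken by fewest wild-type-only regions and then by length), and up to 3 per list with the most knockout-only regions. Those at the limits, without a wild-type peak, at starts, in runs, as markers, or named beside a count (Mitf, Il15, Wipf1, Gp9, Cdk6, Cdkn1a, E2f7) were added after their values were seen. Alternatives were other limits on −log10 q, equal numbers of peaks, other overlap rules, other gene ends and gene types, and leaving out chromosome X.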

Additional observations from a re-analysis of the deposited data

How the results depend on the processing

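No paired analysis was possible because there was only 1 library of each genotype. The number of knockout-only regions inside genes was 2941 as reported, 2144 with equal numbers of peaks and 3527 with a reciprocal overlap of 50%, with the other overlap, annotation and chromosome settings between. Limits of 10 and 15 on −log10 q left 316 and 28. The ratio to wild-type-only regions was 1.11 with equal numbers of peaks, which sets the list lengths equal, 1.57 with the reciprocal overlap, 3.36 with a one-sided limit of 10 on −log10 q and 9.33 with a limit of 15. At gene ends it was 0.92, 1.27, 2.94 and 7.67 in the same order, each time lower than inside genes. The intervals of the 2 places did not overlap with equal numbers of peaks or with the reciprocal overlap. At one-sided limits of 5, 10 and 15 they overlapped (at 10, 2.66 to 4.28 inside genes and 2.23 to 3.92 at gene ends). They also overlapped with both lists limited to a −log10 q of 5 or more (1.71 to 1.95 and 1.53 to 1.80). The same held with peaks merged up to 100 bp apart (1.72 to 1.95 and 1.46 to 1.73). Regions over 10 kb from every gene end were 73.0% with gene ends of 2.5 kb, which leaves out regions near ends, and 52.7% with genes of all types, which adds ends. Regions within 1 kb of a wild-type peak made up 6.96% when both lists were limited to a −log10 q of 5 or more. Lists with more knockout-only than wild-type-only regions were 17, and 11 with equal numbers of peaks, where the balance turned for mast cell and hematopoietic transcription factors (21 against 22) and for cAMP and calcium handling (17 against 22). The cause was not tested where the setting itself does not give it. Leaving out chromosome 19 was chosen after seeing the data and gave 2832 regions and a ratio of 1.76. Of the main values, 30 settings stayed within the limits set and 8 moved beyond them. This tally leaves out the limits of 10 and 15 for the number of regions, which changed it most. It includes leaving out chromosome 19. Without regions within 1 kb of a wild-type peak, CpG-rich start windows were 53.9% (62 of 115). Sequence of whole regions was used only where start windows reach. Depth limits these results: the median region rested on 6 fragments at its summit, and the wild-type signal there is unknown.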
